A study of Homo sapiens with 4 samples.

Results

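Small nucleolar RNAs (snoRNAs) guide the chemical modification of ribosomal RNA, and most human snoRNAs are cut out of the introns of host genes. The genes described here are 10 hosts whose spliced transcripts code for no known protein: *GAS5*, *SNHG1*, *SNHG5*, *SNHG6*, *SNHG7*, *SNHG8*, *SNHG12*, *SNHG15*, *SNHG16* and *ZFAS1*. They were chosen by name, and each symbol matched 1 of the 20457 features in the deposited tables, so 10 of 10 were found. RNA came from HEK293 cells, a widely used line of human embryonic kidney origin, 72 h after transfection with 10 nM siRNA. The siControl group (2 libraries, replicates 1 and 2) received a negative control siRNA and is labelled wild type. The siCNOT4 group (2 libraries, replicates 1 and 2) received siRNA against *CNOT4* and is labelled as a knockdown. CNOT4 is a RING-type E3 ligase that binds the CCR4-NOT deadenylase, and the study asked what it contributes to codon-dependent control of gene expression. All libraries were made from poly(A)-selected RNA with a stranded kit. The labels do not say whether the replicates were separate cultures, so p-values measure the spread between these libraries, which may be technical.

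As background, once the introns with their snoRNAs have been removed, the spliced exons of such hosts are exported and loaded with ribosomes, although their open reading frames are short and poorly conserved. Translation that ends early, upstream of an exon junction, makes many of them substrates of nonsense-mediated decay (NMD), so that blocking translation or NMD is known to raise their levels. Several begin with a 5′ terminal oligopyrimidine (TOP) tract, a C at the first base followed by a run of C and T. The same tract opens the mRNAs of ribosomal proteins and several translation factors, whose translation is controlled through mTORC1 and LARP1. *GAS5*, growth arrest-specific 5, was first found as a transcript that accumulates in growth-arrested cells, and its exons also carry a sequence that can bind the glucocorticoid receptor.

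The annotated start sites are shown first, since the tract is what many of these hosts share with ribosomal protein mRNAs. The RefSeq promoter table (GRCh38.p14) had an entry for 8 of the 10 genes. A tract was counted where a C among the 5 bases before the annotated start or the first 5 transcribed bases was followed by at least 4 bases that were each C or T, on the transcribed strand. By this rule 5 of the 8 had a tract (62.5%), against 19.65% of 35116 promoters of the same length and 76.9% of 65 ribosomal protein genes in that table. The windows below run 5′ to 3′ from 10 bases before the start to the 20th transcribed base, with the tract in capitals.
*SNHG5* (chr6:85678714-85678743, minus strand): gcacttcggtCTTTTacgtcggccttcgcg
*SNHG7* (chr9:136728165-136728194, minus strand): ccttctcgtCCTCTgcgtgcgccggaggct
*SNHG8* (chr4:118278752-118278781, plus strand): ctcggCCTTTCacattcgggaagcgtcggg
*SNHG12* (chr1:28581854-28581883, minus strand): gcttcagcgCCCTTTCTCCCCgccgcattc
*ZFAS1* (chr20:49278632-49278661, plus strand): gccattcgttCTTTCgcgtctgcggtgccc
*SNHG1* (chr11:62855866-62855895, minus strand), no tract by the rule: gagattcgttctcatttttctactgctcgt
In *SNHG5* and *ZFAS1* the tract began at the first transcribed base, in *SNHG7* and *SNHG12* 1 base before it, and in *SNHG8* 5 bases before it. The longest tract, 12 bases, was that of *SNHG12*. *SNHG1* had a T-rich stretch that an A interrupts.

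For *GAS5* and *SNHG16* the RefSeq window gave no tract by the rule and its start coincided with the start of 0 of 29 and 0 of 8 transcripts in GENCODE 29 (GRCh38). The RefSeq start of *SNHG8*, counted above with a tract, also coincided with 0 of 5. In GENCODE 29, 6 of 29 *GAS5* transcripts and 2 of 8 *SNHG16* transcripts opened directly with C and at least 4 bases of C or T, compared with 2.41% of all 206694 transcripts. These starts were looked up after the RefSeq windows had been read. The *SNHG16* run begins 5 bases downstream of the first base of the RefSeq start, 1 base outside the window searched, and with it the count would be 6 of 8. The shares of all promoters and of ribosomal protein genes were not recounted with a wider window. The first 20 bases of these *GAS5* and *SNHG16* transcripts are shown because the first 11 are the same in both genes. The opening run of C and T is in capitals.
*GAS5* (chr1:173867970-173867989, minus strand): CTTTTCgaggtaggagtcga
*SNHG16* (chr17:76557769-76557788, plus strand): CTTTTCgaggtcggccgcgt
The corresponding counts were 3 of 5 for *SNHG6*, 3 of 10 for *ZFAS1*, 4 of 17 for *SNHG12*, 3 of 23 for *SNHG5*, 1 of 5 for *SNHG8*, 1 of 25 for *SNHG1*, 0 of 4 for *SNHG7* and 0 of 10 for *SNHG15*. These are descriptions of annotated sequence. Start sites were not measured in this study.

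Each table gives TPM (transcript abundance per length, scaled to a sum of 1000000 per library), so levels of different genes can be compared. Whole-read steps in the low values put 1 TPM at 12.2 to 14.6 reads per kb of transcript, and the least abundant of the 10 genes in any library, *SNHG7* at 21.1 TPM in siCNOT4 replicate 1, at 263 reads per kb. *CNOT4* itself had 6.43 and 4.73 TPM in siControl and 3.38 and 3.81 TPM in siCNOT4, with no overlap (log2 fold change -0.51, limma adjusted p 0.184). The siControl replicates differed from each other more than the siCNOT4 replicates did. Over the 14208 features tested, those averaging 1 TPM or more, the library medians of log2(TPM + 1) were 4.27 and 3.71 for siControl against 4.53 and 4.57 for siCNOT4, and the median log2 fold change was 0.50. Fold changes are therefore also given relative to that median. Of the markers listed for the cell line, the neurofilament gene *NEFL* (307 to 384 TPM) and the epithelial genes *KRT8*, *KRT18* and *EPCAM* (193 to 360.0 TPM) were abundant in all libraries. Of the other neurofilament genes, *NEFM* stayed below 1 TPM and *INA* rose from 9.60 and 5.62 TPM to 18.9 and 20.8 TPM (limma adjusted p 0.0496). The 6 kidney lineage markers summed to 8.99 to 14.4 TPM, *AQP2* and *PAX8* stayed below 0.25 TPM, and blood and endothelial markers together stayed below 1 TPM. The fibroblast markers *COL1A1* and *DCN* summed to 1.42 and 0.906 TPM in siControl and 5.31 and 6.80 TPM in siCNOT4, and the epithelial cadherin *CDH1* went from 1.17 and 0.635 TPM to 6.03 and 6.03 TPM. Their part in the results below was not tested.

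Most of the 10 hosts were lower in siCNOT4. *SNHG5*, *GAS5*, *SNHG6*, *SNHG1*, *ZFAS1*, *SNHG15*, *SNHG7* and *SNHG8* fell, to between 38.8% (*GAS5*) and 58.8% (*SNHG8*) of their siControl means. *SNHG16* (66.7%) and *SNHG12* (82.3%) did not pass the test. In 9 of 10 both siCNOT4 libraries lay below both siControl libraries, the exception being *SNHG12*. In the fit over all features, 8 of 10 had a limma adjusted p under 0.05 and a lower value in siCNOT4, 0 a higher value, against 1.30% of all 14208 tested features called lower and 11.3% called higher. The same separation of the groups was seen in 10.6% of all tested features. The median log2 fold change of the 10 was -0.94, or -1.44 relative to the median of all tested features. All 10 passed the filter on low values. The number called depended on which libraries were in the fit. Most of these calls, and most of those among all tested features, were lost when either siCNOT4 library was left out. The median log2 fold change of the 10 was then -0.93 (without replicate 1) or -0.95 (without replicate 2). In these fits the spread is that of the siControl pair alone. Without siControl replicate 2 or 1 the median was -0.79 or -1.07, and more hosts and more of all tested features were called. After TMM scaling 7 were called (4.51% of all tested features were called lower) and after quantile normalization 9 (8.23%). The number called was 1 (*GAS5*) when limma's variance prior did not follow mean expression (0.373% of all tested features were called lower). For bulk RNA, less RNA in every cell and a change in fewer cells cannot be told apart.

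**Figure D1:**
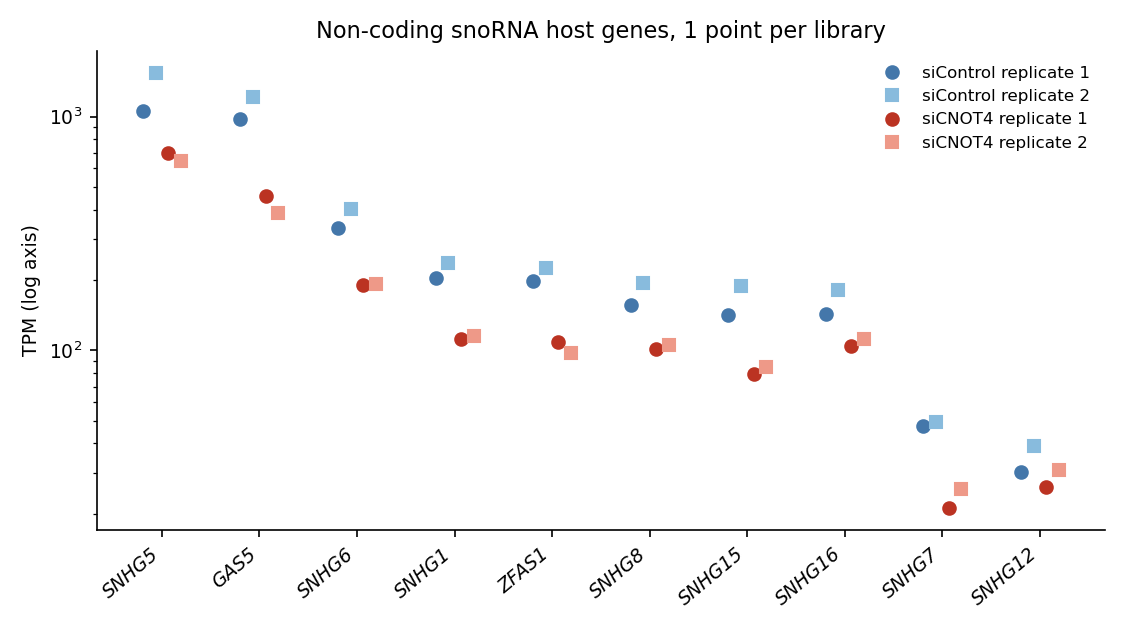
TPM of the 10 host genes (log axis), 1 point per library, with siControl in blue and siCNOT4 in red, ordered by their siControl mean. In every gene but *SNHG12* both red points lie below both blue points, and siControl replicate 2 is the highest library for all 10 genes.

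The most abundant hosts were *SNHG5* and *GAS5*, which together took 57.5% to 64.5% of the TPM of the 10 genes in each library. *SNHG5* (chromosome 6, 85660950 to 85678748, GRCh38, GENCODE 29) hosts the box C/D snoRNAs of the SNORD50 family. It had 1054 and 1544 TPM in siControl and 696 and 643 TPM in siCNOT4. Its siControl replicates were the most unequal among the 10, differing by 0.55 on the log2(TPM + 1) scale, while the group difference was -0.93 (SE 0.20, limma adjusted p 0.0420). *GAS5* (chromosome 1, 173863900 to 173868882) hosts 10 box C/D snoRNAs. It had 974 and 1211 TPM in siControl and 458 and 389 TPM in siCNOT4, or 1092 ± 167 against 424 ± 49.4 (mean ± SD, n = 2 each). The log2 fold change was -1.36 (SE 0.16, limma adjusted p 0.0228), the largest decrease of the 10, and 0.232% of all tested features had a lower value. *SNHG5* ranked above *GAS5* in all 4 libraries.

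The next group by level was *SNHG6*, *SNHG1* and *ZFAS1*, which were called with adjusted p values of 0.0256 to 0.0272 in limma. *SNHG6* (chromosome 8, 66921684 to 66926398), host of SNORD87, had 335 and 404 TPM in siControl and 189.5 and 193 TPM in siCNOT4. *SNHG1* (chromosome 11, 62851988 to 62855914), host of SNORD22 and SNORD25 to SNORD31, had 203 and 236 TPM against 112 and 115 TPM. *ZFAS1* (chromosome 20, 49278178 to 49295738), host of the SNORD12 family, had 197 and 224 TPM against 108 and 97.8 TPM. In these 3 genes the replicates of each group lay close together and the groups were well apart. Their log2 fold changes were -0.94, -0.94 and -1.03, and replicate differences within siControl were 0.27, 0.21 and 0.18.

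*SNHG8*, *SNHG15* and *SNHG16* had similar levels in siControl. *SNHG15* (chromosome 7, 44983023 to 44986961), host of SNORA9, had 141 and 189 TPM in siControl and 79.3 and 84.9 TPM in siCNOT4, and the log2 fold change was -0.98 (standard error 0.19, limma adjusted p 0.0364). *SNHG8* (chromosome 4, 118278709 to 118279823), host of the box H/ACA snoRNA SNORA24, had 156 and 195 TPM against 102 and 105 TPM, with -0.75 as its log2 fold change (SE 0.17, limma adjusted p 0.0451). Of the 8 called hosts, *SNHG8* was nearest to the threshold. *SNHG16* (chromosome 17, 76557766 to 76565348), host of the SNORD1 family, had 144 and 181 TPM against 105 and 112 TPM. Its groups did not overlap, but the log2 fold change of -0.57 (SE 0.18) had a limma adjusted p of 0.0704. In siCNOT4 replicate 2 *SNHG16* ranked 5th among the 10 genes, compared with 7th and 8th in siControl. In siControl the mean levels of these 3 genes (176, 165 and 162 TPM) differed by less than the spread between replicates.

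The lowest levels were those of *SNHG7* and *SNHG12*, and these 2 genes changed places. *SNHG7* (chromosome 9, 136721366 to 136728184), host of SNORA17 and SNORA43, had 47.5 and 49.6 TPM in siControl and 21.1 and 25.6 TPM in siCNOT4, with -1.03 as its log2 fold change (SE 0.22, limma adjusted p 0.0414). *SNHG12* (chromosome 1, 28578538 to 28583132), host of SNORA16A, SNORA44, SNORA61 and SNORD99, had 30.1 and 39.0 TPM against 26.0 and 30.8 TPM. Here siCNOT4 replicate 2 was above siControl replicate 1, and the log2 fold change of -0.27 (SE 0.24) had a limma adjusted p of 0.408. *SNHG7* was above *SNHG12* in both siControl libraries and below it in both siCNOT4 libraries. *SNHG12* was called under 1 of 13 alternatives, without siControl replicate 1 (log2 fold change -0.45, limma adjusted p 0.0153). The 5 genes with a RefSeq tract had log2 fold changes from -0.27 (*SNHG12*) to -1.03 (*SNHG7*). Those whose RefSeq window had no tract by the rule had values from -0.57 (*SNHG16*) to -1.36 (*GAS5*). A link between tract and fold change was not tested. With 2 libraries a group, an exact permutation test of a single gene cannot give a two-sided p below 0.333.

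**Figure D2:**
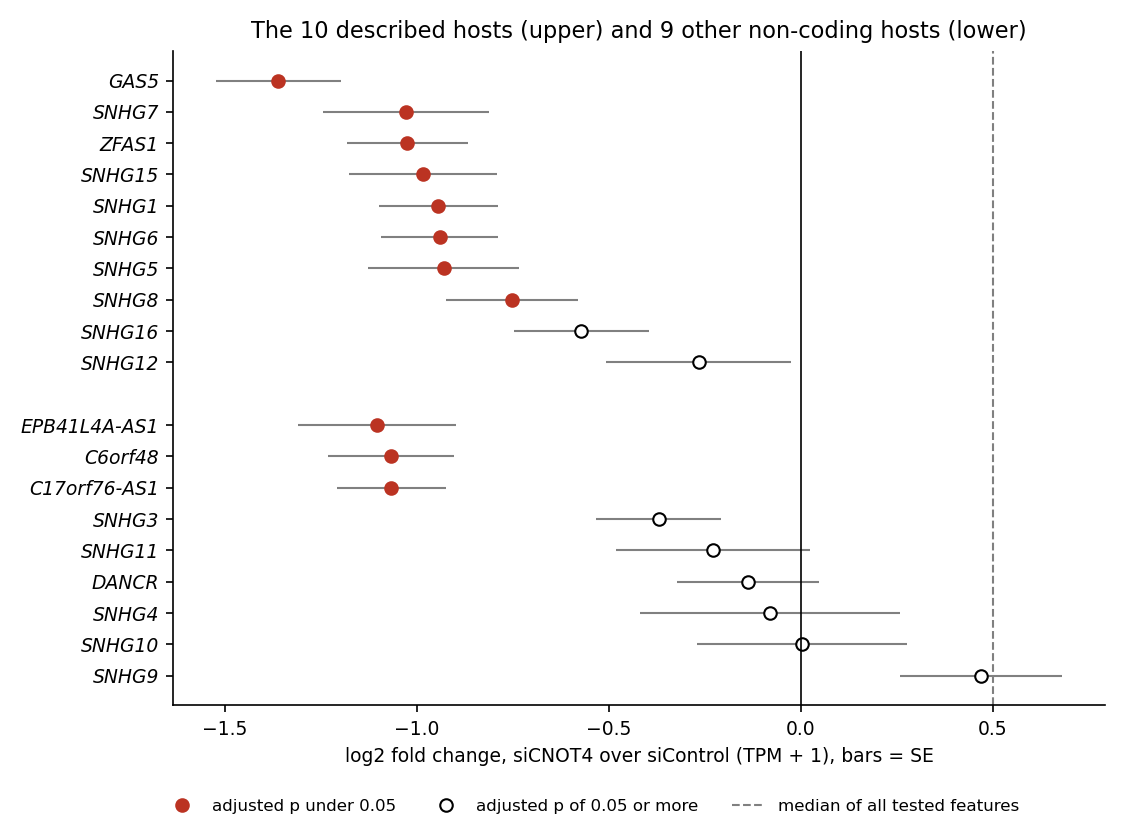
Log2 fold change of siCNOT4 over siControl on log2(TPM + 1), with limma standard errors as bars, for the 10 hosts (upper block) and 9 other non-coding hosts (lower block). Filled points have an adjusted p under 0.05, and the dashed line is the median of all tested features (0.50), which lies to the right of all 19 points, the nearest being *SNHG9* (0.47).

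The siControl libraries also differed from each other in these genes. All 10 were higher in siControl replicate 2 than in replicate 1, by a median of 0.31 on the log2 scale, whereas 20.02% of all tested features were higher in replicate 2 and the median of all was lower by 0.38. Ribosomal protein genes showed a median difference of 0.32 between the same libraries. In the siCNOT4 replicates, 7 of 10 were higher in replicate 2. In 9 of 10 genes the group difference was larger than the difference between siControl replicates, the exception again being *SNHG12*. The share of all tested features meeting this condition was not counted. Against siControl replicate 1 alone, that is without siControl replicate 2, the median log2 fold change of the 10 was -0.79, or -1.09 relative to all tested features. Annotated transcripts of these hosts are short: their median transcript length in GENCODE 29 was 718 nt at the median gene, against 671 nt for ribosomal protein genes and 1024 nt for tested features with a length. After a trend on transcript length and GC content was removed from each library, 9 of 10 were called lower (11.9% of 13073 features), and with median instead of longest transcript lengths 7 of 10 were (6.76%).

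Because ribosomal protein mRNAs carry the same type of 5′ end, each host was set against them. The reference was the median of 80 tested cytosolic ribosomal protein genes in the same library. A single scaling factor per library leaves this ratio unchanged apart from the pseudocount, whereas quantile normalization or trend removal can change it. The hosts' median lay below the ribosomal protein median by a log2 difference of -3.62 and -3.63 in siControl, and of -4.00 and -3.94 in siCNOT4. For 8 of 10 genes both siCNOT4 values were below both siControl values. *GAS5* was lower by 0.87 on this scale, from -1.16 and -1.11 to -1.90 and -2.10. *SNHG16* overlapped (a difference of -0.078), and *SNHG12* was above, by 0.23. This ratio was not tested, and the share of all tested features with groups apart on this scale was not counted. The ribosomal protein genes themselves had a median log2 fold change of -0.52. Of these, 21 of 80 were called lower and 1 higher, against 1.30% and 11.3% of all tested features. The 1 called higher was *RPS27L*, a paralog that is induced through p53 (0.81), and *RPL39* had the lowest value (-1.30, limma adjusted p 0.0635). The count of ribosomal protein genes called depended on the libraries and the scaling. Leaving out siControl replicate 1 or 2 changed their median to -0.69 or -0.37. Leaving out siCNOT4 replicate 1 or 2 changed it to -0.58 or -0.51. After TMM scaling 4 of 80 were called lower (median -1.05), against 4.51% of all tested features. After quantile normalization 8 of 80 were lower and 2 higher (median -0.18), against 8.23% of all tested features called lower. Under both scalings the share called lower was thus near that of all tested features. Relative to all tested features the median was -1.02 as reported and -0.20 after quantile normalization.

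**Figure D3:**
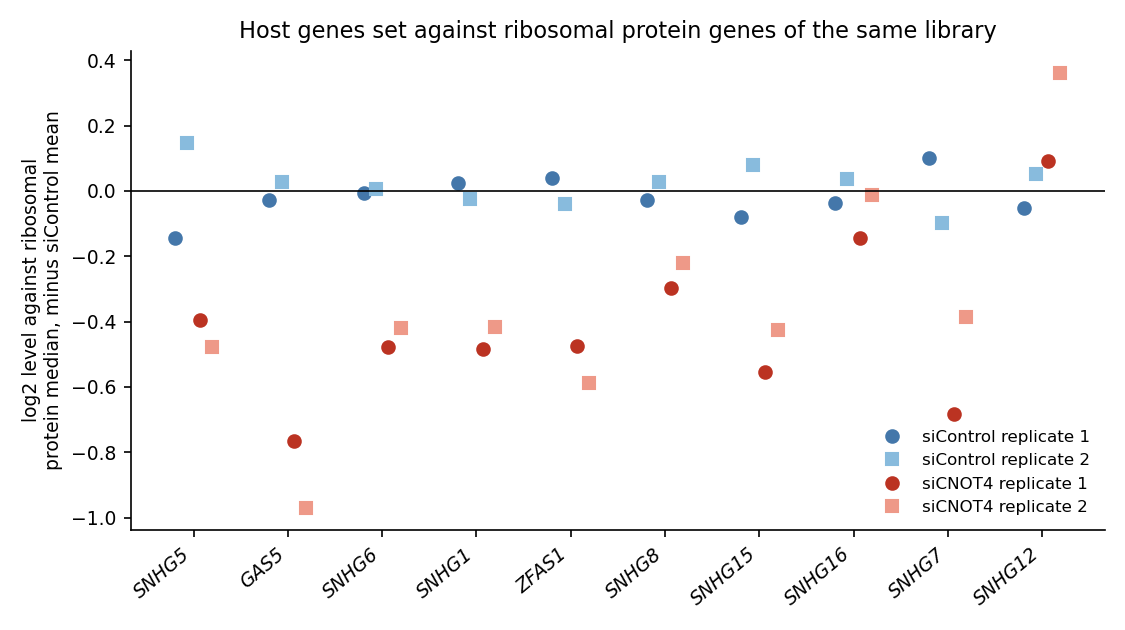
Log2 level of each host against the median of 80 ribosomal protein genes of the same library, shown as the difference from its siControl mean, 1 point per library. For 8 genes both siCNOT4 points lie below both siControl points, lowest in *GAS5*, while *SNHG16* overlaps and *SNHG12* lies above. The share of all tested features apart on this scale was not counted.

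Of 17 other non-coding hosts listed for comparison, 9 had a symbol in the tables and all 9 were tested. Of these, 3 were called lower and 0 higher, against 1.30% and 11.3% of all tested features. *EPB41L4A-AS1*, host of SNORA13, had 101 and 136 TPM in siControl and 56.9 and 51.4 TPM in siCNOT4 (log2 fold change -1.10, limma adjusted p 0.0335). *C17orf76-AS1*, the older symbol of *SNHG29*, had 752 and 895 TPM against 404 and 379 TPM (-1.07). *C6orf48*, the older symbol of *SNHG32*, had 129 and 129 TPM against 64.2 and 57.8 TPM (-1.07). The latter pair were chosen for mention after their values were seen. The highest fold change was that of *SNHG9* (0.47, limma adjusted p 0.140), with 30.1 and 37.4 TPM against 45.6 and 48.2 TPM, so that both siCNOT4 libraries were above. The median of the 9 was -0.23, or -0.73 relative to all tested features. Of the 9, 1 was called lower without siCNOT4 replicate 1 and 0 without siCNOT4 replicate 2, where *C17orf76-AS1* had a limma adjusted p of 0.0574. Without siControl replicate 1, 5 were called lower and 2 higher, and without siControl replicate 2, 5 and 1, in fits that called 8.73% and 10.3% of all tested features lower and 70.9% and 47.2% higher.

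Hosts that code for proteins were listed separately. Of 22 coding hosts outside the ribosomal proteins, 3 fell and 1 rose (1.30% and 11.3% of all tested features), with a median log2 fold change of -0.10. The lowest was *EEF1B2*, a subunit of the elongation factor eEF1 exchange complex (-0.74, limma adjusted p 0.0368), and the highest *CHD8*, a chromatin remodeller (1.41, limma adjusted p 0.0735). Of 16 TOP mRNAs that do not encode ribosomal proteins, 3 fell and 0 rose, with a median of -0.26, which became 0.042 after quantile normalization. *EIF4B*, an initiation factor, was the highest of these (0.54, limma adjusted p 0.0747). These 2 lists share *EEF1B2*, *EEF2*, *TPT1* and *GNB2L1*. Without either siCNOT4 library, 0 members of both lists were called. Without siControl replicate 1, where 8.73% of all tested features were called lower and 70.9% higher, 9 coding hosts were lower and 7 higher, and 9 TOP mRNAs lower and 2 higher. Without siControl replicate 2, where 10.3% were called lower and 47.2% higher, 10 coding hosts were lower and 3 higher, and 8 TOP mRNAs lower and 2 higher.

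The decay pathway was described by its factors and by other known substrates. Of 15 NMD factors, 0 were called in limma, with 1 lower and 3 higher at an unadjusted p under 0.05. Of all 14208 tested features, 5974 passed that unadjusted threshold, 568 of them lower and the rest higher. The median log2 fold change of the 15 factors was 0.30, or -0.20 relative to all tested features. It was negative after TMM scaling (-0.22) and quantile normalization (-0.043). *SMG1*, the kinase that phosphorylates UPF1, had the highest value (1.23, limma adjusted p 0.0931), from 22.4 and 8.24 TPM in siControl to 32.5 and 34.8 TPM in siCNOT4. *UPF3B*, which links the exon junction complex to UPF1 and UPF2, had the lowest (-0.49, limma adjusted p 0.106). Without siControl replicate 1, 1 of 15 was called lower and 11 higher, and without siControl replicate 2, 1 and 7, in fits that called 70.9% and 47.2% of all tested features higher, so these shares were near those of all features. Of 9 mRNAs known as NMD substrates, 1 fell and 1 rose, against 1.30% of all tested features called lower and 11.3% called higher. *ATF4*, the transcription factor of the integrated stress response, had 1005 and 1151 TPM against 358 and 352 TPM (-1.60, limma adjusted p 0.0228). *GADD45B*, a stress-induced signalling protein, rose from 12.7 and 12.9 TPM to 27.3 and 26.8 TPM (1.02, limma adjusted p 0.0466). *ATF4* was called under all 13 alternatives and *GADD45B* under 5, with adjusted p values of 0.489 and 0.485 without siCNOT4 replicate 1 and 2. Without siControl replicate 1, or 2, 6 of the 9 substrates were called lower and 2 higher, against 8.73% and 10.3% of all tested features lower in those fits. Several of these substrates also belong to the stress response downstream of ATF4. Of 16 proteins that make up or assemble snoRNPs, 2 fell and 0 rose: *FBL*, the methyltransferase of box C/D snoRNPs, was lowest (-0.73, limma adjusted p 0.0475), and *SHQ1*, an assembly factor of box H/ACA snoRNPs, was highest (0.85, limma adjusted p 0.0758). Without either siCNOT4 library 0 of the 16 were called, while 7 were lower and 7 higher without siControl replicate 1, and 6 and 5 without siControl replicate 2, where 70.9% and 47.2% of all tested features were called higher.

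The tables also list snoRNAs of the host loci as features, 35 in all, each with a mean TPM of at least 1. Mature snoRNAs lack a poly(A) tail, and poly(A) libraries do not select them, so these values may include unspliced or intron-retaining host RNA, and lengths near or below that of a sequenced fragment make such TPM uncertain. Summed over the 35, they had 1051 and 796.5 TPM in siControl and 793.5 and 969 TPM in siCNOT4, with overlapping groups. In 6 features both siCNOT4 libraries were below, in 11 above, and in 18 the groups overlapped, while over all tested features 10.6% were below and 66.4% above. At a limma adjusted p under 0.05, 1 was lower and 0 were higher, against 1.30% and 11.3% of all tested features. The feature called was SNORD81, within *GAS5*, with 93.3 and 137.5 TPM against 30.1 and 45.8 TPM (log2 fold change -1.58, limma adjusted p 0.0316), named here after its value was seen. Without siCNOT4 replicate 1 its adjusted p was 0.0646. The 10 snoRNA features of *GAS5* summed to 514 and 408 TPM in siControl and 368 and 460.5 TPM in siCNOT4, so their groups overlapped where those of the host did not. The 8 features of *SNHG1* summed to 356.5 and 229 TPM against 252 and 319 TPM, also with overlap. The median log2 fold change of the 35 features was 0.15. The difference between hosts and snoRNA features was not tested.

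**Figure D4:**
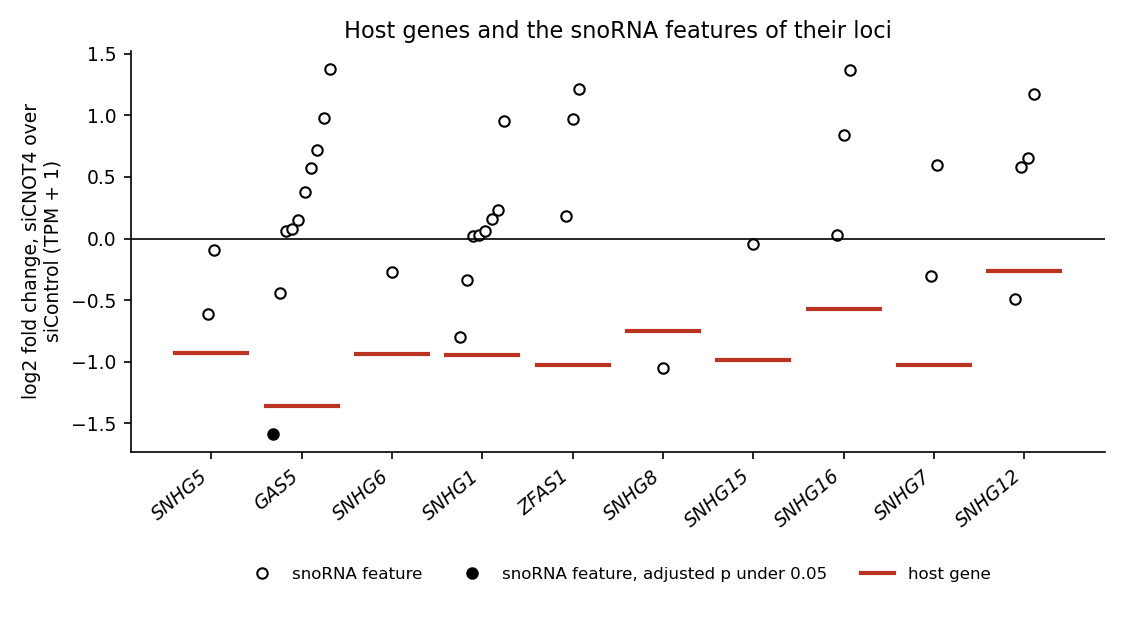
Log2 fold change of siCNOT4 over siControl for each host gene (red bar) and for each snoRNA feature of its locus (points), on log2(TPM + 1). Of 35 snoRNA features 1, SNORD81 in *GAS5*, passes the adjusted p threshold, and 32 of the 35 points lie above the bar of their host. Most tested features would too: between 0.232% (*GAS5*) and 9.1% (*SNHG12*) of them had a lower fold change than a given host.

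Neighbouring and overlapping genes bear on what was counted, since the sources used here do not say whether the authors counted reads by strand. In GENCODE 29, 25.2% of the exonic bases of *SNHG7* overlap those of *FAM69B* on the opposite strand, which had 71.7 and 59.5 TPM in siControl and 36.9 and 41.3 TPM in siCNOT4 (log2 fold change -0.73, limma adjusted p 0.0596). Reads of these overlapping genes cannot be told apart without strand. For *SNHG6* the overlapping gene *MCMDC2* (29.3% of exonic bases) stayed at or below 0.304 TPM. For *ZFAS1* the overlapping gene *ZNFX1* (11.1%) had at most 13.8 TPM and was higher in both siCNOT4 libraries than in both siControl libraries. *GAS5-AS1* shares 1.2% of the exonic bases of *GAS5* and had 2.84 to 4.90 TPM. For *SNHG16*, 30.6% of exonic bases overlap AC015802.6, whose values were not analysed here. Protein-coding genes that start within 1000 nt on the opposite strand were found for 3 hosts. *ZBTB37*, a zinc finger gene whose start lies 93 nt from that of *GAS5*, had 3.32 and 0.659 TPM in siControl and rose to 11.3 and 10.2 TPM in siCNOT4 (log2 fold change 2.14, limma adjusted p 0.0433). *ZNFX1*, 41 nt from *ZFAS1*, had a log2 fold change of 0.90 (limma adjusted p 0.156). *SLC3A2*, an amino acid transporter subunit 614 nt from *SNHG1*, had 119.5 and 105 TPM against 73.1 and 74.3 TPM (-0.59, limma adjusted p 0.0603).

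The features whose pattern over the 4 libraries was most like the mean of the 10 hosts were *DNPH1*, *PACSIN3*, *POLR3K*, *PFDN2* and *PRKAG2-AS1*. Likeness was the root mean square distance between centred log2(TPM + 1) profiles, from 0.036 for *DNPH1* to 0.047 for *PRKAG2-AS1*, among 11385 features averaging 5 TPM or more. *DNPH1*, a nucleotide hydrolase, had 206 and 269 TPM in siControl and 123 and 124.5 TPM in siCNOT4. On the same measure *SNHG6* (0.032) was closest to the mean of the hosts, and *GAS5* (0.26) and *SNHG12* (0.32) were farthest, with 534 and 814 other features closer than they were. With 4 libraries such a ranking is a description only.

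**Figure D5:**
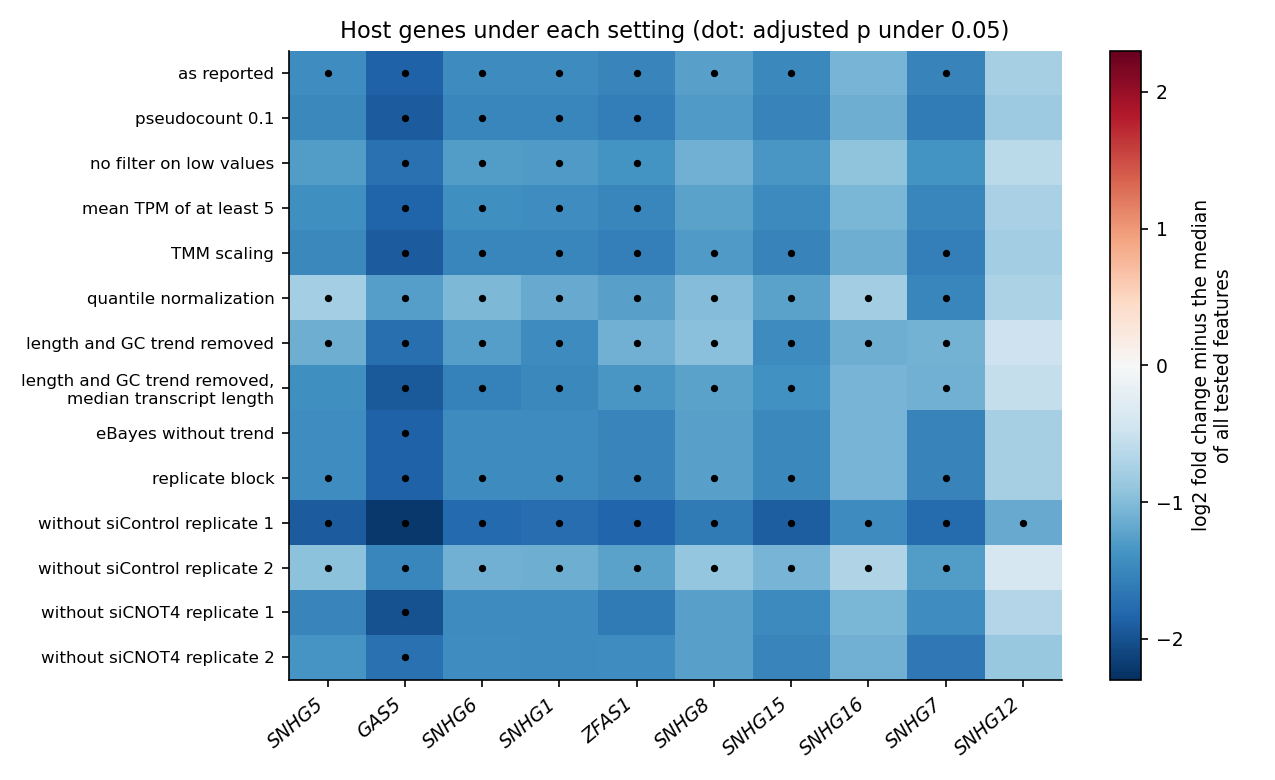
Log2 fold change of each host minus the median of all tested features (colour) under the reported setting and 13 alternatives, with a dot where the limma adjusted p is under 0.05. Every cell is below 0, *GAS5* carries a dot in every row, and *SNHG12* carries 1.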

How the data were processed

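RNA of 4 HEK293 libraries (2 siControl, 2 siCNOT4, grouped by sample title) was measured. The deposited tables hold TPM, per the file headers, scaled to 1000000 per library. FastQC 0.11.2, STAR 2.5.3a, featureCounts and build hg19 are named in the submitters' processing notes, and the annotation and strand setting are not given in the sources used here. TPM was transformed to log2(TPM + 1), and the 14208 features averaging 1 TPM or more entered the fit of siCNOT4 against siControl with limma 3.58.1 (R 4.3.3; lmFit and eBayes with trend, prior degrees of freedom 4.22), with Benjamini-Hochberg adjustment over all tested features and a threshold of 0.05. With the pseudocount of 1, fold changes of low genes are understated. Alternatives changed the pseudocount, filter, scaling (TMM factors computed from the TPM values, quantiles), length and GC trend (mgcv 1.9.3), variance prior, block and replicates. The 10 genes, the comparison lists and the markers were chosen with earlier results of these data known. The rule for named genes was all 10 hosts, *CNOT4*, the lowest and highest gene of each list, and the 5 features nearest in pattern. Neighbours and snoRNA features were taken by position or symbol. Coordinates are from GENCODE 29 and RefSeq (both GRCh38), not the build of the files, so no signal was placed on them.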

Additional observations from a re-analysis of the deposited data

How the results depend on the processing

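All 10 hosts had a negative log2 fold change under each of the 13 alternatives, and the median relative to all tested features ranged from -1.78 to -1.09 with replicates left out. The number of hosts called was 8 as reported, and the number under each alternative follows. Counts in brackets are all features called lower in the same fit. It was 4 (*GAS5*, *SNHG1*, *SNHG6*, *ZFAS1*) with a pseudocount of 0.1 (80 of 14208), with no filter (61 of 19734), and with a mean TPM of at least 5 (38 of 11395). It was 1 (*GAS5*) without the variance trend (53 of 14208). It was 7 after TMM scaling (641 of 14208) and 9 after quantile normalization (1169 of 14208). After trend removal it was 9 with the longest transcript (1556 of 13073). It was 7 with the median transcript (884 of 13073), a setting chosen after seeing the data. It was 8 with the replicate number as a block (313 of 14208). With replicates left out it ranged from 1 to 10. The number of all features called was 1792 as reported, 558 with a pseudocount of 0.1, 908 without a filter, 147 with a mean TPM of at least 5, 2999 after trend removal, 756 without the variance trend and 3655 with the replicate block, and from 450 to 11311 with replicates left out. Same-numbered libraries deviated together with r = 0.17 across features, but the labels do not say that numbers pair them. Of 130 values of single hosts under alternatives, 35 lost and 5 gained the call. The cause of these changes was not tested. With 1 library left in a group, that library is assumed to vary like the other group. The least abundant host had at least 263 reads per kb in each library.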
